A study of Rattus norvegicus with 7 samples.

Results

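Prostanoids are lipid mediators made from arachidonic acid, and the 10 genes described here cover their synthesis, breakdown and reception: Pla2g4a, Ptgs1, Ptgs2, Ptges, Ptgds, Ptgis, Tbxas1, Hpgd, Ptger2 and Ptger4. They were chosen by name for their place in the pathway, with earlier results of these data known. Of the 10, 8 were found among the 17246 genes of the deposited tables, and Ptges and Ptgis were not analysed here. RNA was sequenced from the meibomian gland, a modified sebaceous gland along the lid margin whose lipid coats the tear film, in wild-type female Sprague-Dawley rats aged 3 months. The 4 control libraries are labelled as untreated. The 3 UVB libraries came from rats whose shaved upper lids received ultraviolet B light at 300 mJ/cm2, for 5 min a day on 5 days. Whether controls were shaved, how long after the last exposure the glands were taken, and whether each library came from 1 animal are not given in the labels, so the p-values below measure the spread between these samples. The comparison asked which transcripts of the gland differed between irradiated and non-irradiated rats.

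Arachidonic acid is cut from membrane phospholipids by phospholipases, among them the cytosolic enzyme encoded by Pla2g4a. The cyclooxygenases turn it into an unstable endoperoxide, which terminal synthases convert into prostaglandin E, D or F, prostacyclin or thromboxane. In skin, ultraviolet light is a classical stimulus of prostaglandin formation, and prostaglandin E acts there on vessels, keratinocytes and immune cells through G protein-coupled receptors.

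Among the members, both cyclooxygenase transcripts rose and the transcript of the lipocalin-type prostaglandin D synthase fell in the UVB libraries. Ptgs1 rose 2.68-fold, Ptgs2 rose 8.02-fold and Ptgds fell 3.28-fold. Of the 8 members, 7 passed the filter on low counts and were tested. By edgeR's quasi-likelihood test, with p-values adjusted over all 13709 genes tested and a threshold of 0.05, 2 members were called higher, 1 was called lower and 4 were not called. Over all genes tested, 13.0% were called, 6.3% higher and 6.74% lower. The 2 groups of libraries did not overlap for 4 of the 7 members, 2 above and 2 below the controls, where 26.6% of all genes tested did not overlap. The median log2 fold change was 0.15 over the 7 tested members and -0.0058 over all genes tested. The members moved in different directions, and the median describes none of them.

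**Figure D1:**
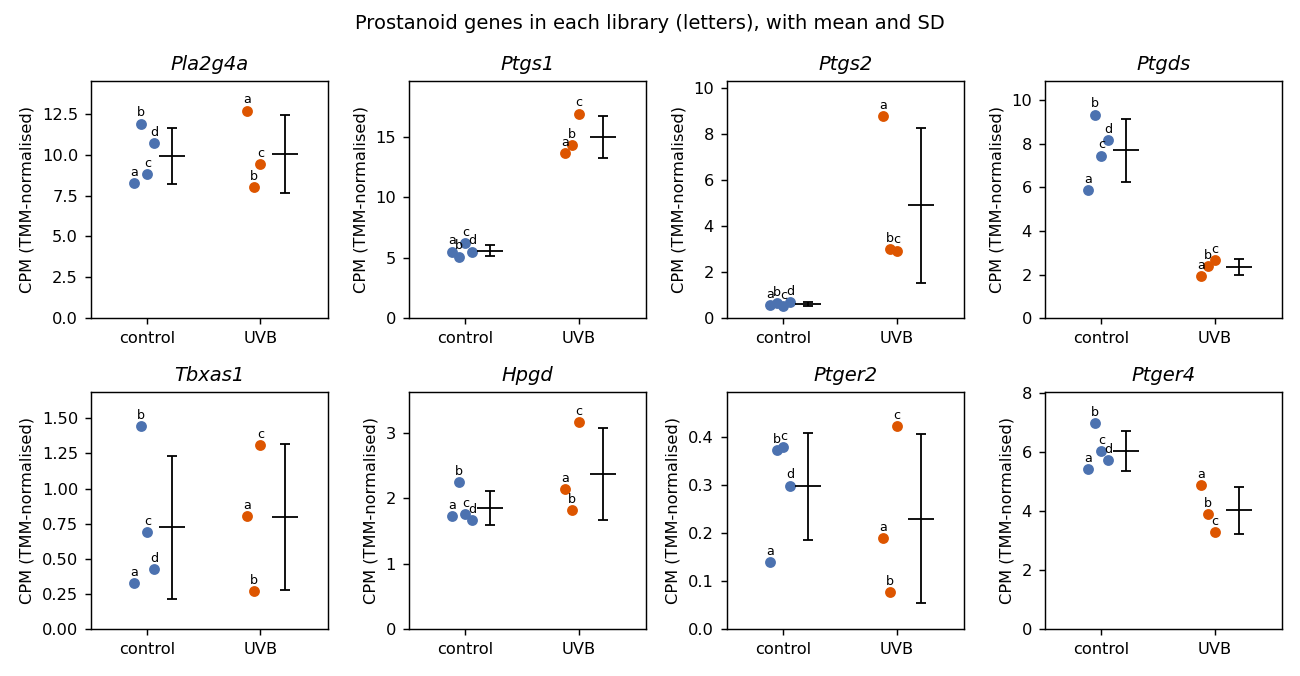
CPM (counts set to a shared library size, TMM-normalised; y axis) of the 8 members in each library; points are libraries named by their letters, and the bars beside them are the mean and SD of 4 control and 3 UVB libraries. Each panel has its own scale from 0; Ptgs1 and Ptgs2 lie above every control in the UVB libraries, Ptgds and Ptger4 lie below, and the other 4 overlap.

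The libraries held between 20680237 and 28784941 counts each. The defining transcripts of meibocytes were abundant: the 9 listed genes, among them Awat2, Scd and Elovl4, summed to 42790 to 51800 TPM (length-corrected transcript abundance) in controls and 38880 to 45480 TPM after UVB, most of it Scd. Of the 9, 2 were called lower without overlap of the groups: Awat2, the wax ester synthase gene (log2 fold change -0.66, adjusted p = 0.00453 by edgeR), and Plin2, a lipid droplet coat gene (-0.45, adjusted p = 0.00826). Their part in the results on the members was not tested. All genes below were measured in whole gland, where a change in the number of cells of a type and a change in RNA per cell cannot be told apart. Skeletal muscle markers summed to 1747 to 2496 TPM in controls and 1216 to 2130 TPM after UVB, which overlap. The samples thus held tissue beside the gland, and its part in the results was not tested.

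The first step was not called. In CPM (counts set to a shared library size), Pla2g4a (NCBI gene 24653) measured 8.26, 11.9, 8.80 and 10.7 in control a to d and 12.7, 8.01 and 9.44 CPM in UVB a to c. UVB a was the highest and UVB b the lowest of all 7 libraries, so the groups overlapped throughout. The means were 9.92 ± 1.69 CPM (SD, n = 4) and 10.1 ± 2.41 CPM (SD, n = 3), and the log2 fold change was 0.016 (SE 0.18, adjusted p = 0.966 by edgeR). Its 95% interval ran from -0.40 to 0.43, which bounds a difference in either direction at 1.35-fold.

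Cyclooxygenase transcripts gave the steepest rises among the members. Ptgs1 (NCBI gene 24693) encodes cyclooxygenase-1, the form most tissues make constitutively, and Ptgs2 (NCBI gene 29527) encodes cyclooxygenase-2, the form known for its induction by injury and cytokines. Ptgs1 measured 5.51, 5.09, 6.21 and 5.51 CPM in the controls and 13.7, 14.3 and 16.9 CPM after UVB. The lowest UVB library was well above the highest control, and libraries within each group were close together. The means were 5.58 ± 0.465 CPM (SD, n = 4) and 14.96 ± 1.72 CPM (SD, n = 3), from 109 to 180 counts per control library and 288 to 439 per UVB library. The log2 fold change was 1.42 (SE 0.12, 95% interval 1.14 to 1.70, adjusted p = 0.00095 by edgeR). Ptgs1 had the smallest p-value of the members.

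Ptgs2 was low in the controls, with 12, 14, 15 and 16 counts, and had 185, 77 and 76 counts in UVB a to c. In CPM these are 0.560, 0.653, 0.518 and 0.684 in the controls against 8.77, 2.98 and 2.93 after UVB. All 3 UVB libraries were above all 4 controls, and UVB a stood far above the other 2. The means were 0.604 ± 0.0779 CPM (SD, n = 4) and 4.89 ± 3.36 CPM (SD, n = 3), with a log2 fold change of 3.00 (SE 0.44, 95% interval 2.02 to 3.99, adjusted p = 0.00594 by edgeR). Without UVB a the log2 fold change was 2.29 (adjusted p = 0.00341 by edgeR). On the log2(TPM + 1) scale, which compresses low values, it was 1.13 (limma adjusted p = 0.0398).

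In TPM, the scale used here to compare levels between genes, Ptgs1 was the more abundant cyclooxygenase in every library. Together the pair summed to 3.58 ± 0.311 TPM (SD, n = 4) in controls and 10.87 ± 1.123 TPM (SD, n = 3) after UVB. Ptgs2 made up 6.03, 7.30, 4.98 and 7.06% of that sum in control a to d and 28.5, 11.5 and 9.74% in UVB a to c. The share was above every control in each UVB library, yet Ptgs1 supplied most of the cyclooxygenase transcript after irradiation too. These sums and shares are descriptions without a test.

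**Figure D2:**
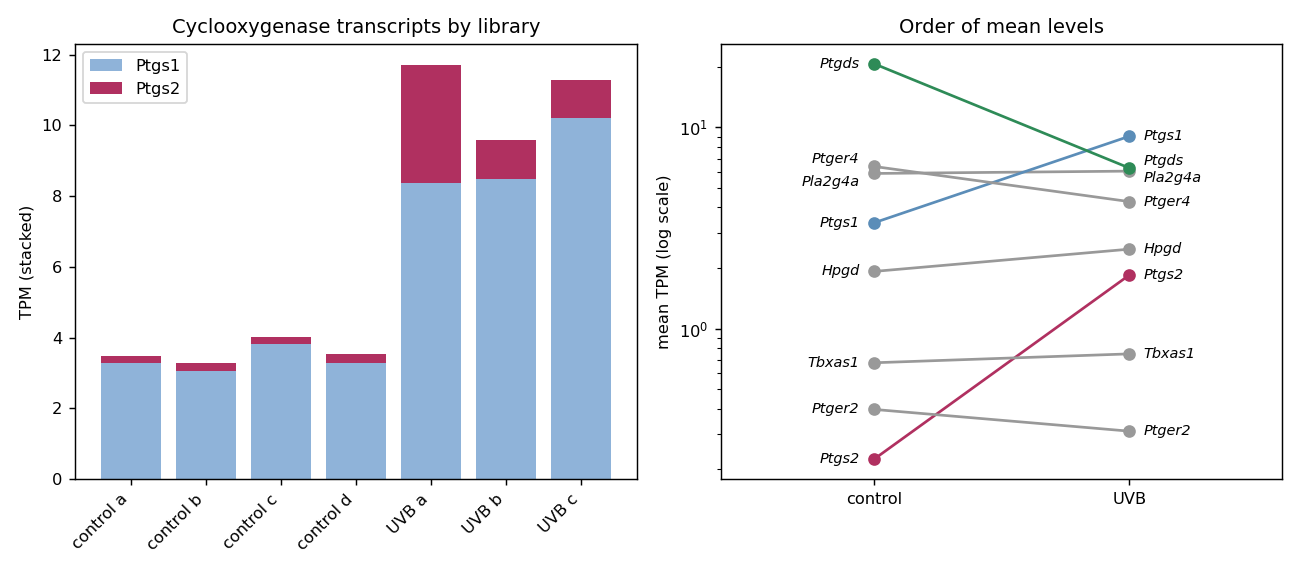
Left, TPM of Ptgs1 and Ptgs2 stacked for each of the 7 libraries; right, mean TPM of the 8 members (log axis) in the 4 control and 3 UVB libraries, joined by lines. The Ptgs1 part is the larger in all 7 bars, and Ptgds moves from the first place in controls to the second after UVB, below Ptgs1.

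Because both cyclooxygenase genes rose, their promoters are shown, from 250 bases before to 50 bases after the annotated start, from RefSeq on rat assembly GRCr8. The counts were made on rn7, per the submitters' processing notes, and coordinates were not converted. Ptgs1 has its promoter at chr3:39981169-39981468 and Ptgs2 at chr13:64713813-64714112, both on the plus strand. Capitals mark matches to the motifs searched.
Ptgs1: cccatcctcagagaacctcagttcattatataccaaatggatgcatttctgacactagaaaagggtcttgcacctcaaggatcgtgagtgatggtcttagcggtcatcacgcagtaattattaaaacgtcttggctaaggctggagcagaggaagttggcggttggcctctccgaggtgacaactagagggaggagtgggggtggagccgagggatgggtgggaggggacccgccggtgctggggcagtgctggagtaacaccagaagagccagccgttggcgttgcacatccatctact
Ptgs2: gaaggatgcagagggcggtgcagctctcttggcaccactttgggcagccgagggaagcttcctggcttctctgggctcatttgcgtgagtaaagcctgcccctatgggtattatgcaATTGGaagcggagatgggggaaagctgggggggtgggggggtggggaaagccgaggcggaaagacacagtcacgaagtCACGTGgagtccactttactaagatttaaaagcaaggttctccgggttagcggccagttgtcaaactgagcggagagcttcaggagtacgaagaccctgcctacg
The motifs were TATAAA, TGACGTCA (a cyclic AMP response element), TGANTCA (AP-1), GGGNNTTTC (NF-kappa B), CACGTG (E-box) and CCAAT, each on both strands, and none of them lies within another. Ptgs2 held CACGTG starting 55 bases upstream of the start and CCAAT on the opposite strand, read as ATTGG, starting 133 bases upstream. Over the 27457 RefSeq promoters of the same length, CACGTG occurred in 6.65% and CCAAT in 37.7%. TATAAA occurred in 14.3%, TGACGTCA in 1.91%, TGANTCA in 7.33% and GGGNNTTTC in 4.52%, and none of these 4 motifs was in the Ptgs2 window. Only the given letters were searched, so variants of the motifs and sites further upstream were not covered. The windows of Ptgs1, Ptgds and Ptger4 held no match to any of the 6. The annotated start of Ptger4 falls on the letters atg, as the start of a coding sequence would, so its window may not hold the promoter. Its lack of a match and its GC content describe that window only. GC content was 54.3% for Ptgs1, 56.7% for Ptgs2, 60.7% for Ptgds and 50.3% for Ptger4, against a median of 52.3% over all promoters.

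Of the terminal synthase members, Ptgds and Tbxas1 were analysed. Ptgds (NCBI gene 25526) encodes the lipocalin-type enzyme that makes prostaglandin D and also carries retinoids and other lipophilic ligands. It measured 5.88, 9.34, 7.45 and 8.16 CPM in the controls and 1.94, 2.40 and 2.66 CPM after UVB. Every UVB library was below every control, and the UVB libraries lay closer together than the controls. The means were 7.71 ± 1.44 CPM (SD, n = 4) and 2.33 ± 0.362 CPM (SD, n = 3), from 126 to 216 and 41 to 69 counts per library. The log2 fold change was -1.72 (SE 0.20, 95% interval -2.16 to -1.27, adjusted p = 0.00234 by edgeR). Hpgds, which encodes the other, haematopoietic prostaglandin D synthase, measured 6.16 ± 2.35 TPM (SD, n = 4) and 7.04 ± 0.886 TPM (SD, n = 3), with overlapping groups and no call. The Ptgds level was 2.69 to 5.40 times that of Hpgds in the controls and 0.760 to 1.02 times after UVB, with no overlap. Summed, the pair measured 26.8 ± 5.86 TPM (SD, n = 4) in controls and 13.3 ± 1.59 TPM (SD, n = 3) after UVB.

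Tbxas1 (NCBI gene 24886) encodes thromboxane synthase. It had 7, 31, 20 and 10 counts in the controls and 17, 7 and 34 after UVB, so single libraries of each group differed more than the groups did. Its log2 fold change was 0.15 (SE 0.60, 95% interval -1.22 to 1.51, adjusted p = 0.901 by edgeR), and its sign turned without control a (-0.079), control d (-0.033) or UVB c (-0.45). Tbxas1 overlaps Parp12 in the RefSeq annotation of GRCr8, and the strand setting of the counting is not given in the sources used here, so reads could be shared.

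Breakdown was represented by Hpgd (NCBI gene 79242), whose enzyme oxidises prostaglandins as the first step of their inactivation. Hpgd measured 1.73, 2.24, 1.76 and 1.67 CPM in the controls and 2.13, 1.82 and 3.16 CPM after UVB. UVB c was the highest library, and the other 2 UVB libraries lay within the control range. The log2 fold change was 0.36 (SE 0.24, 95% interval -0.18 to 0.91, adjusted p = 0.353 by edgeR). It was 0.096 without UVB c.

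The receptor members differed in level. Ptger2 and Ptger4 encode the receptors EP2 and EP4 for prostaglandin E, which both raise cyclic AMP. Ptger2 (NCBI gene 81752) had 3, 8, 11 and 7 counts in the controls and 4, 2 and 11 after UVB. At these counts it did not pass the low-count filter, and whether the groups differed was not tested. Ptger4 (NCBI gene 84023) measured 5.42, 7.001, 6.04 and 5.73 CPM in the controls and 4.88, 3.91 and 3.28 CPM after UVB. All 3 UVB libraries were below all 4 controls, though UVB a was close to control a. The means were 6.05 ± 0.686 CPM (SD, n = 4) and 4.02 ± 0.810 CPM (SD, n = 3), and the log2 fold change was -0.59 (SE 0.18, 95% interval -0.99 to -0.20, adjusted p = 0.0556 by edgeR), which missed the threshold. It passed with DESeq2 (-0.59, adjusted p = 0.023), with limma-voom (-0.61, adjusted p = 0.0466) and in edgeR without UVB a (-0.75, adjusted p = 0.0385). Over all alternatives the adjusted p ran from 0.023 to 0.151, the last without UVB c (edgeR). In GRCr8 both receptor genes overlap an uncharacterised gene.

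Among all prostanoid receptors analysed, ranked by mean TPM in controls, Ptger1 was highest at 9.46 ± 0.962 TPM (SD, n = 4). The expected counts of Ptger1 were not whole in any of the 7 libraries, unlike those of the other receptors, so reads could be shared. Ptger4 followed at 6.39 ± 0.747 TPM (SD, n = 4), then Ptgfr at 4.73 ± 0.979 TPM (SD, n = 4), whose range overlapped that of Ptger4. Ptger3 (2.19 TPM), Ptgir (1.16 TPM), Tbxa2r (1.04 TPM), Ptger2 (0.398 TPM) and Ptgdr2 (0.06 to 0.33 TPM) were lower. After UVB, Ptger1 was again first at 9.11 ± 1.11 TPM (SD, n = 3), and Ptgfr at 4.75 and Ptger4 at 4.28 TPM exchanged places with overlapping ranges.

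The order of the members by TPM also changed. In controls Ptgds (20.7 ± 3.96 TPM, SD, n = 4) was above Ptger4 (6.39 TPM) and Pla2g4a (5.90 TPM), which overlapped. Ptgs1 (3.36 TPM), then Hpgd (1.93 TPM), followed with ranges apart from their neighbours. Tbxas1 (0.678 TPM), Ptger2 (0.398 TPM) and Ptgs2 (0.225 TPM) were last, and each overlapped the next. After UVB, Ptgs1 was first (9.03 ± 1.02 TPM, SD, n = 3), with its range apart from that of Ptgds (6.28 TPM). Ptgds, Pla2g4a (6.06 TPM) and Ptger4 (4.28 TPM) overlapped as neighbours, as did Hpgd (2.48 TPM), Ptgs2 (1.85 TPM), Tbxas1 (0.750 TPM) and Ptger2 (0.310 TPM). The ratio of Ptgds to Ptgs1 was 4.76, 8.23, 5.33 and 6.59 in the controls and 0.635, 0.742 and 0.707 in the UVB libraries. The rank of Ptgds above Ptgs1 was thus inverted in all 3 UVB libraries.

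Beyond the members, 38 other genes of the pathway were listed by role; 35 were analysed and 32 tested, of which 2 were called higher, 1 was called lower and 29 were not called. That share of calls is not above the 13.0% called over all genes tested. Their median log2 fold change was 0.035. Of the 15 tested phospholipases and lipases that can release arachidonate, 1 was called higher and 1 lower. Pla2g4f, a cytosolic phospholipase of the same family as Pla2g4a, measured 12.6, 12.8, 10.6 and 13.1 CPM in the controls and 19.7, 18.9 and 39.9 CPM after UVB. All UVB libraries were higher, UVB c by the most. Its log2 fold change was 1.10 (SE 0.26, adjusted p = 0.0318 by edgeR). It was 0.66 without UVB c, still called. The call was lost, at fold changes of like size, without control a (1.11, adjusted p = 0.065), control b (1.119, 0.0746), control c (1.03, 0.0829) or control d (1.14, 0.0706), and with limma on log2(TPM + 1) without a filter (0.90, 0.0645).

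Pla2g2f encodes a secreted phospholipase found in suprabasal epidermis. It measured 41.1, 41.0, 37.5 and 46.7 CPM in the controls and 21.0, 15.4 and 28.9 CPM after UVB, with every UVB library lower. Its log2 fold change was -0.93 (SE 0.19, adjusted p = 0.0195 by edgeR), and without UVB a the value was -0.91 and the call was lost (adjusted p = 0.0604). Mgll, the monoacylglycerol lipase gene, was the most abundant of the role at 632 ± 22.7 TPM (SD, n = 4) and 606 ± 86.6 TPM (SD, n = 3), and was not called. Pla2g4c and Pla2g10 had at most 3 counts in any library.

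In the other roles, 1 further gene was called. Ptgr1 encodes prostaglandin reductase 1, which acts after Hpgd in breakdown and also reduces leukotriene B4 products and reactive aldehydes. It measured 66.9, 87.7, 75.0 and 95.6 CPM in the controls and 117, 142 and 124 CPM after UVB, again without overlap. The log2 fold change was 0.65 (SE 0.12, adjusted p = 0.0124 by edgeR). Ptgr1 overlaps an uncharacterised gene in GRCr8, as Abcc4 and Ptges3 overlap others, and Lpcat3 overlaps Emg1, so reads could be shared here too. The expected counts of Lpcat3 and Ptges3 were not whole in any of the 7 libraries, and those of Ptgr1 and Abcc4 were whole. Ptgr2 and Zadh2 (also named Ptgr3), the other reductase genes listed, were not called. The 5 other synthase genes were not called by edgeR, DESeq2 or limma-voom, and 0 of them had an unadjusted p under 0.05 in edgeR. Ptges3, a prostaglandin E synthase that is also a co-chaperone, was the most abundant of them at 179 ± 24.7 TPM (SD, n = 4) and 193 ± 10.7 TPM (SD, n = 3). The exporter gene Abcc4 measured 142 ± 8.96 TPM (SD, n = 4) and 161 ± 2.94 TPM (SD, n = 3), with every UVB library above every control. Its unadjusted p was 0.0393 and its adjusted p was 0.146 by edgeR, so it was not called. The acyltransferase gene Lpcat3, which returns arachidonate to phospholipids, measured 214 ± 32.9 TPM (SD, n = 4) and 215 ± 15.4 TPM (SD, n = 3) and was not called. The 5 tested receptor genes outside the members were not called by edgeR, DESeq2 or limma-voom, and 1 of them, Ptgir, had an unadjusted p under 0.05 in edgeR. Ptgir, the prostacyclin receptor gene, measured 1.16 ± 0.201 TPM (SD, n = 4) in controls and 1.86 ± 0.345 TPM (SD, n = 3) after UVB, without overlap, and its adjusted p was 0.0994 by edgeR.

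**Figure D3:**
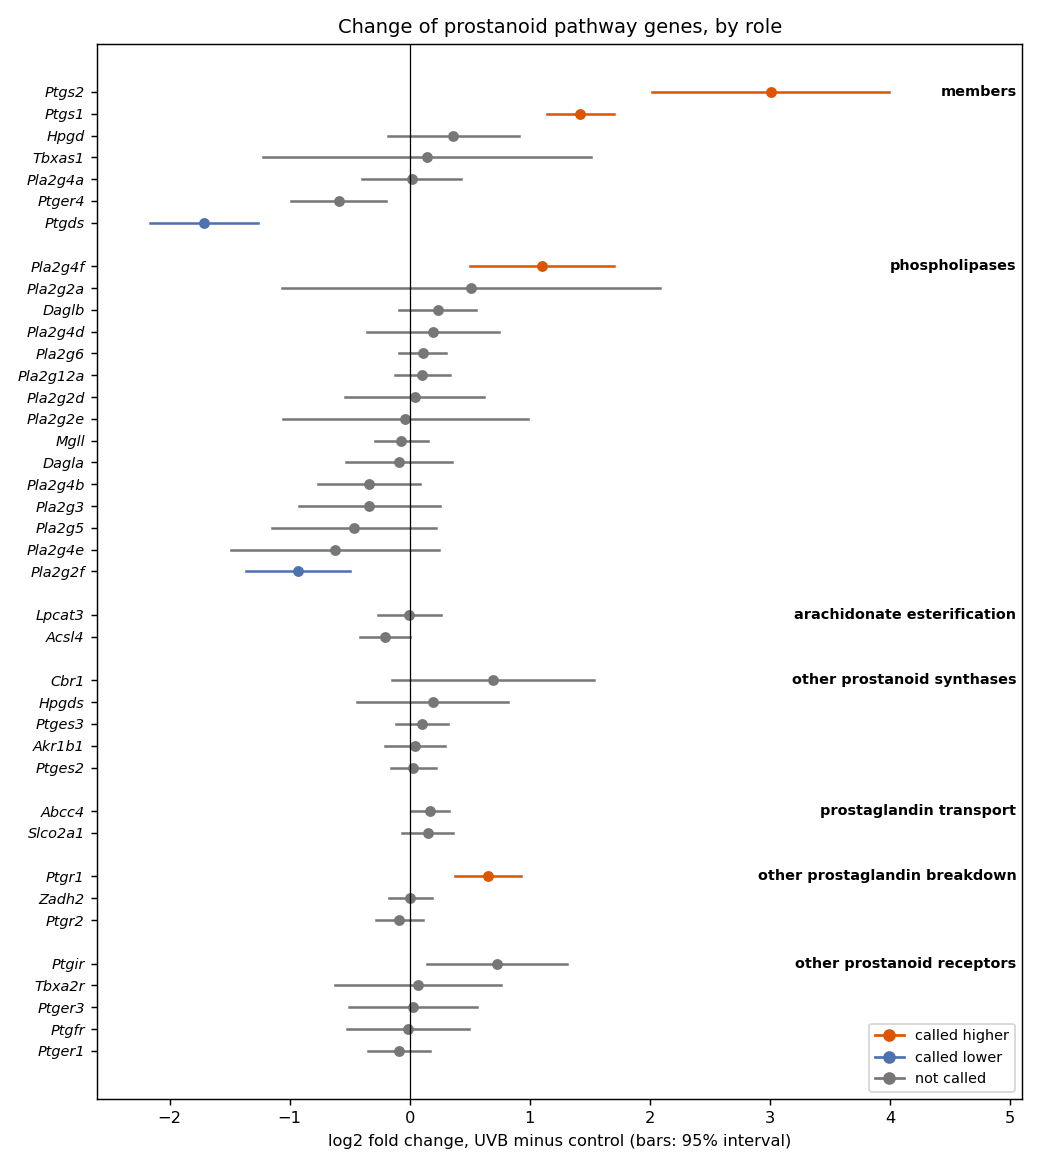
Log2 fold change, UVB minus control, of each tested prostanoid gene by role (x axis), with 95% intervals from edgeR as bars; 4 control and 3 UVB libraries. Of the 7 members, Ptgs2 and Ptgs1 are called higher and Ptgds lower, and of the 32 other genes Pla2g4f and Ptgr1 are called higher and Pla2g2f lower.

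Several cell types that can hold these transcripts had markers that moved with the groups, and their part in the results was not tested. The counts of calls below stand against 13.0% called over all genes tested. Beside the rises of Ptgs1 and Ptgs2, 4 of 8 tested macrophage markers were called higher, with a summed level of 88.8 to 160 TPM in controls and 135 to 233 TPM after UVB, which overlap. Mast cell markers, of which 2 of 6 were called higher, summed to 21.6 to 30.2 TPM and 37.6 to 40.6 TPM, with no overlap. Most of the sum was Kit (means 17.8 TPM in controls and 23.2 TPM after UVB), which was not called, and Mcpt1 was at 0 in all libraries. Platelet markers summed to 4.64 to 11.8 TPM and 16.6 to 32.3 TPM, but only Pf4 of 2 tested was called, and the defining markers Ppbp and Gp9 had at most 3 counts in any library. Neutrophil markers, 2 of 4 called higher, summed to 1583 to 1781 TPM and 1845 to 2117 TPM, nearly all of it S100a8 and S100a9, which epithelium also makes. The calls were S100a9 and Csf3r, the granulocyte colony-stimulating factor receptor gene, which rose 8.96-fold (adjusted p = 0.00608 by edgeR), and Elane was at 0. Endothelial markers, 2 of 5 called higher, summed to 40.7 to 49.4 TPM and 49.9 to 55.1 TPM. Of 6 fibroblast markers, 3 were called higher by edgeR, namely Lum (3.87-fold, adjusted p = 0.00348), Dcn (1.93-fold, adjusted p = 0.029) and Pdgfra (1.88-fold, adjusted p = 0.00348), and Pi16 was called lower. The fibroblast sums, 960 to 1491 TPM and 1218 to 1960 TPM, overlapped.

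Beside the fall of Ptgds, which melanocytes and glia are known to express, 3 of 5 melanocyte markers were called lower, with sums of 74.8 to 137 TPM in controls and 56.7 to 66.1 TPM after UVB. Schwann cell markers, 1 of 6 called lower, summed to 132 to 157 TPM and 99.5 to 118 TPM. The UVB libraries were below the controls for both lists. Beside Pla2g2f and Pla2g4f, 2 of 7 cornifying epithelium markers were called lower, with overlapping sums of 4528 to 5479 TPM and 4648 to 7167 TPM. In CPM after UVB, 3 of the 7 lay below every control, 1 (Krtdap) lay above and 3 overlapped. Over all genes tested, 26.6% did not overlap. Basal epithelium markers, 3 of 5 called higher, summed to 7947 to 10120 TPM and 10430 to 11530 TPM, with no overlap. The rise of the sum lay mostly in Krt14, with means of 5279 TPM in controls and 7338 TPM after UVB. Krt5, with means of 3564 and 3529 TPM, and Tp63 were not called. The 3 called markers thus stood higher beside the rises of Ptgs1 and Ptgs2 as well.

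**Figure D4:**
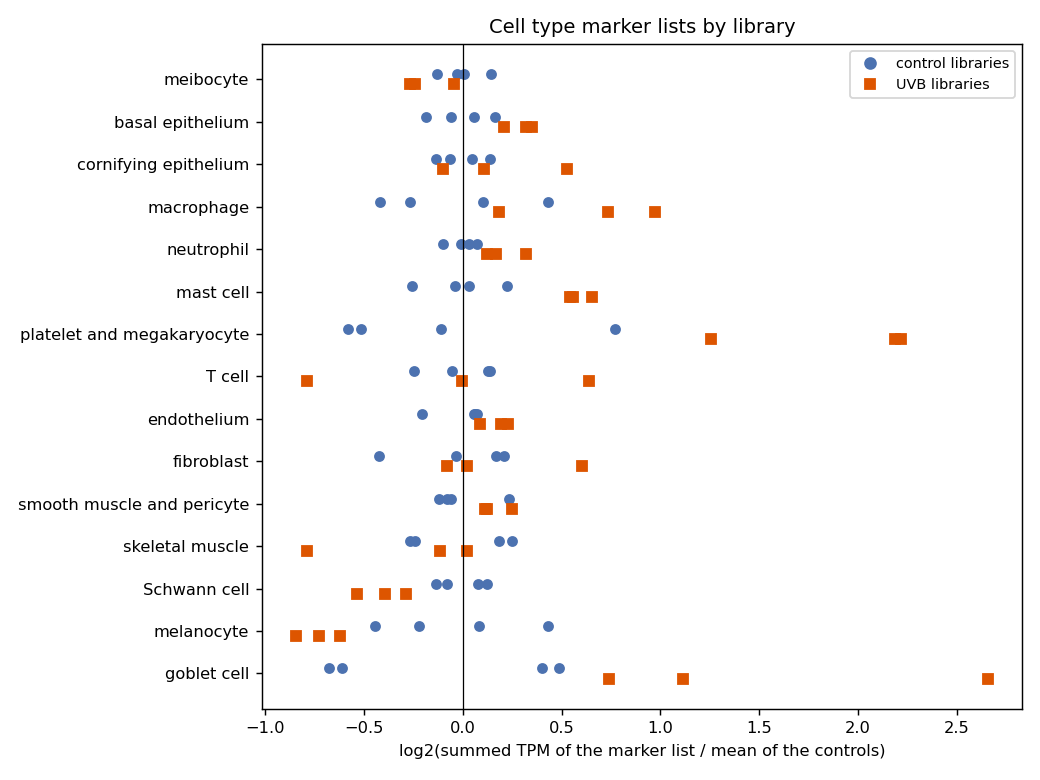
Summed TPM of each cell type marker list in each library, as the log2 ratio to the mean of the controls (x axis); circles are the 4 control libraries and squares the 3 UVB libraries. Basal epithelium, neutrophil, mast cell, platelet, endothelium and goblet cell lists lie above all controls after UVB. The melanocyte and Schwann cell lists lie below, and the other lists, the macrophage list among them, overlap.

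The genes whose profiles were closest to the members' were listed by the root mean square difference of mean-centred log2 CPM over the 7 libraries, among 13709 genes and with no test. Closest to Ptgs1 were Lpl, the lipoprotein lipase gene (0.0954), Vat1l (0.129), the beta-tubulin gene Tubb3 (0.134), the monoamine transporter gene Slc29a4 (0.152) and the cell cycle inhibitor gene Cdkn1c (0.171). Among those closest to Ptgds, the member with the highest mean TPM, were the sodium channel gene Scn11a (0.135), Ctsw (0.206), Dpyd (0.222) and Alpg (0.258). All of these differences are in log2 units, and the group difference is part of each profile.

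**Figure D5:**
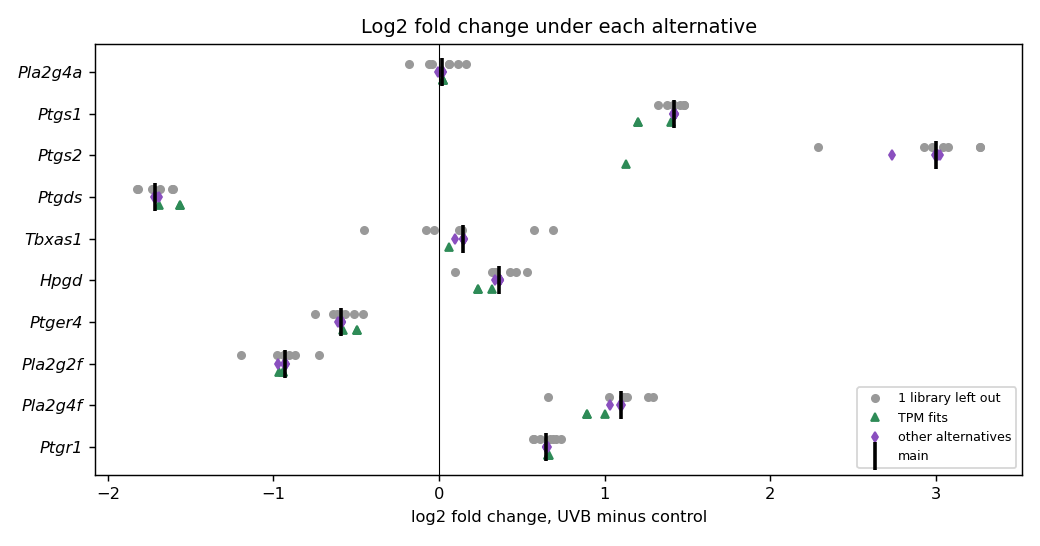
Log2 fold change, UVB minus control (x axis), of the 7 tested members and the 3 called pathway genes under the reported fit (black line) and under each alternative: 1 library left out (circles), fits to TPM (triangles) and others (diamonds). Ptgs1 and Ptgs2 stay to the right of 0 and Ptgds and Ptger4 to the left, while Pla2g4a and Tbxas1 have points on both sides.

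Across the 19 alternatives, Ptgs1 was called in all of them, at log2 fold changes of 1.20 to 1.48 (highest adjusted p 0.0068), and Ptgds likewise at -1.82 to -1.56 (highest adjusted p 0.0106). Ptgs2 was called in the 17 that held it, the other 2 being TPM fits whose minimum mean of 1 TPM it did not reach.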

How the data were processed

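The authors deposited expected counts per gene (called raw, 12.5% of values not whole) and TPM values, per the file headers. FastQC, Trimmomatic, DRAGEN, Picard and build rn7 are named in the submitters' processing notes; the counter, annotation and strand setting are not given in the sources used here. Gene names with unquoted commas shifted cells, so each row's 7 values were taken counting back from its end, and 5 rows without 7 values were left out. The deposited TPM summed to 82.0 to 84.1% of its nominal total per library. Column names give the group and a number that matches no sample title, so libraries carry letters without pairing.

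Expected counts were rounded and tested with edgeR 4.0.16 (R 4.3.3): quasi-likelihood, robust, TMM, filterByExpr by group, two-sided, Benjamini-Hochberg over all genes tested. SE is the absolute log2 fold change over the square root of F. Levels are TMM-normalised CPM or deposited TPM. Alternatives used DESeq2 1.42.0 and limma 3.58.1, other scalings and filters, TPM and each library left out; fits were tested on simulated data. Members and lists were chosen with earlier results of these data known. Text names all members, pathway genes called or most abundant in their role, and the 5 nearest profiles of 2 members (1 of these genes is not reported here). Other pathway genes were named after their values were seen where they are a counterpart of a member. Of the genes, 15678 matched RefSeq by gene ID. Marker lists also held T cells (1 of 3 called higher), smooth muscle (2 of 7 higher), skeletal muscle (0 of 5 called, by edgeR, DESeq2 or limma-voom, and 0 at an unadjusted p under 0.05) and goblet cells (0 of 2 called by edgeR, 1 by DESeq2, 0 by limma-voom, 2 at an unadjusted p under 0.05).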

Additional observations from a re-analysis of the deposited data

Results flagged for a closer look

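Hpgd in control b measured 2.24 CPM, while the other 3 controls lay between 1.67 and 1.76 CPM. The gap between control b and the nearest control was 0.839 of the range of the 4 controls, which marks a library apart from the rest. It was the 1 such value among 11 genes examined in the controls, and chance marks about 5% of groups.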

How the results depend on the processing

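The counts of calls among the members ran from 2 (the TPM fits with a minimum mean of 1 TPM, which Ptgs2 did not reach) to 4 (DESeq2, limma-voom and edgeR without UVB a, each with Ptger4). Among the other pathway genes 2 or 3 were called in every alternative. Over all genes tested, 1787 calls became 2451 with DESeq2, 1803 with limma-voom and 1137 with log2(TPM + 1) and no filter. With 1 library left out they ran from 851 (without control c) to 1898 (without control a), with 1214 without UVB a. The log2 fold change of Pla2g4a turned to -0.0041 with limma-voom and ran from -0.18 to 0.16 with 1 library left out; that of Tbxas1 ran from -0.45 to 0.69. The causes were not tested. Of the alternatives, 18 were planned and 1, the unrounded counts, was chosen after seeing the data. A mean count of at least 50 left out Hpgd and Tbxas1. No paired analysis was possible because no column carries a replicate number of the labels, so the replicate block was not run. Depth limits Ptger2, Tbxas1 and the control level of Ptgs2, each with at most 31 counts per control library.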

Other observations

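Control b was the highest control library for Ptgds (9.34 CPM), Pla2g4a (11.9 CPM), Ptger4 (7.001 CPM), Hpgd (2.24 CPM) and Tbxas1 (1.45 CPM), and control a the lowest for Ptgds (5.88 CPM), Pla2g4a (8.26 CPM), Ptger4 (5.42 CPM) and Tbxas1 (0.327 CPM). The summed macrophage markers were also highest in control b (160 TPM) and lowest in control a (88.8 TPM). Among the UVB libraries, UVB c was the highest for Ptgs1, Ptgds, Tbxas1, Hpgd and Ptger2, and UVB a for Ptgs2, Pla2g4a and Ptger4. The ratio of Pla2g4f to Pla2g2f in TPM was 0.0998 ± 0.00543 (SD, n = 4) in controls and 0.317, 0.415 and 0.465 in UVB a to c. The ratio is a description without a test.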
